A study of Mus musculus with 6 samples.

Results

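The EGR, NR4A and IER early genes of antigen receptor signalling were followed as a list of 10 genes picked by symbol: *Egr1*, *Egr2*, *Egr3*, *Nab2*, *Nr4a1*, *Nr4a2*, *Nr4a3*, *Ier2*, *Ier3* and *Ier5*. All 10 were found among the 23420 symbols of the count table, and all 10 were tested. The mice carried either intact *Ahr* (Ahr+/+, n = 3 mice) or a deletion of *Ahr* in every cell of the body (Ahr-/-, n = 3 mice), both on a C57Bl/6J background. Splenic B lymphocytes of both genotypes received the same treatment, 8 h of culture in medium with 5% FCS, 10 μg/ml α-IgM to engage the BCR and 20 ng/ml IL-4, with the AhR ligand FICZ at 250 nM present for the last 4 h. The comparison therefore asks how these genes differed without AhR in cells that had all been activated. Unstimulated cells and cells without FICZ were not analysed here. All libraries were taken at 8 h, so the induction and peak of these genes at earlier times were not measured. The deletion was not limited to B cells. Without unstimulated libraries, differences that arose before culture cannot be told apart from those that arose during it. In the paper the name of the deletion line also includes another strain. Effects of any sequence of that strain near *Ahr* cannot be told apart from those of the deletion.

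Immediate early genes are transcribed soon after a stimulus from factors already present in the cell, and many of their transcripts are short-lived. In B cells the BCR reaches them through calcium, calcineurin and NFAT, through ERK and the SRF partners of the ELK family, and through CREB. EGR1, EGR2 and EGR3 are zinc finger transcription factors, and NAB2 is a corepressor that binds them and limits their activity. NR4A1 (Nur77), NR4A2 and NR4A3 are orphan nuclear receptors, and *Nr4a1* is widely used as a reporter of antigen receptor signalling. IER2 and IER5 are nuclear proteins induced by growth stimuli and stress, and IER3 (IEX-1) is known for its part in cell survival.

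Of the 10 genes, 5 passed an adjusted p-value of 0.05 in edgeR's quasi-likelihood test, and each of them was lower without AhR. They were *Egr2*, *Egr3*, *Nr4a2*, *Nr4a3* and *Ier3*. Over all 13682 tested genes 17.9% were called in either direction and 8.13% were called lower. *Egr2* and *Egr3* fell while *Nab2*, the gene of their corepressor, was nearly level. Among the NR4A and IER genes, *Nr4a2* and *Nr4a3* fell beside a nearly level *Nr4a1*, and *Ier3* fell beside nearly level *Ier2* and *Ier5*. *Egr1* was also lower in the mean, with a log2 fold change of −0.25 (95% interval −0.43 to −0.07) that did not pass the threshold. The same 5 genes were those whose values did not overlap between the genotypes, which held for 33.5% of all tested genes and, in the lower direction, for 15.8%. The median log2 fold change over the 10 genes was −0.37, against 0.002 over all tested genes. In bulk RNA, fewer cells that express a gene and less of its RNA per cell cannot be told apart.

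**Figure D1:**
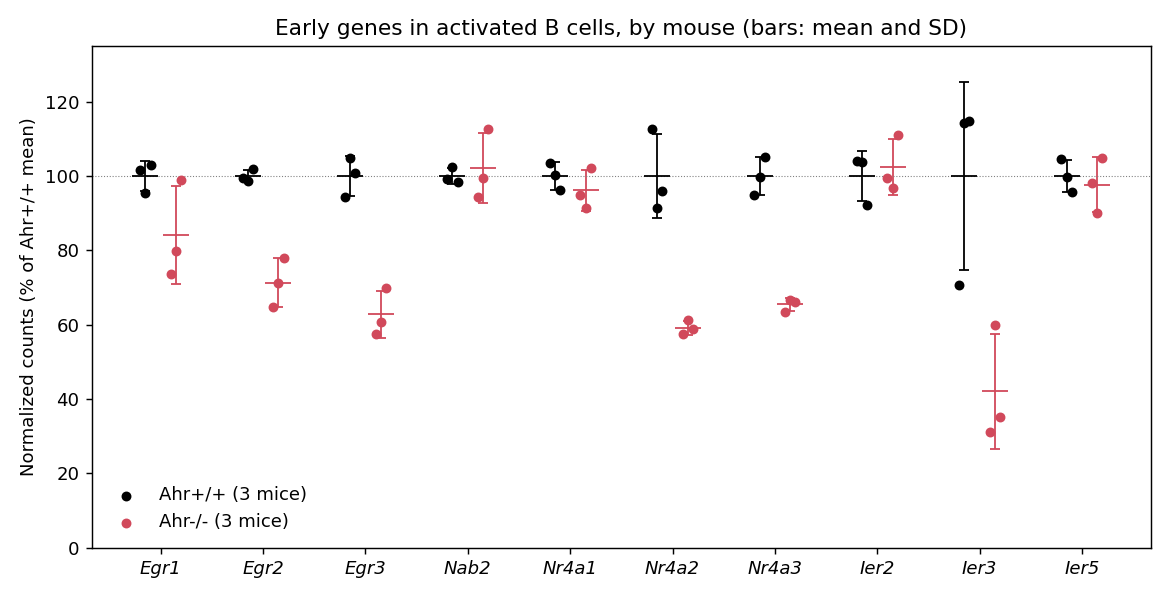
Normalized counts of each early gene in each mouse, as percent of the Ahr+/+ mean (vertical axis, linear from 0), with Ahr+/+ in black and Ahr-/- in red; points are mice and bars are the mean and SD of 3 mice. The Ahr-/- means of *Egr2*, *Egr3*, *Nr4a2*, *Nr4a3* and *Ier3* lie at 71.3%, 62.7%, 59.1%, 65.5% and 42.1% of Ahr+/+, and those of *Nab2*, *Nr4a1*, *Ier2* and *Ier5* between 96.1% and 102.4%.

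Values are given as normalized counts, the number of reads on a gene scaled to a common library size. The libraries held between 22095096 and 53648787 counts, the smallest being Ahr-/- replicate 1, so 3 counts in a library correspond to between 2.13 and 5.15 normalized counts. Counts of mice of a genotype differed beyond sampling noise (chi-square per degree of freedom 3.96 to 9.24), so each library was kept as its own sample. *Ahr* itself, on chromosome 12 of GRCm38 from 35497974 to 35535038, had a log2 fold change of −0.52 ± 0.047 (SE; edgeR adjusted p = 7.1e-06), and counts summed over its exons cannot tell which of them were read. The list of 7 B cell markers was present throughout, with a summed level of 82474 to 86477 normalized counts in Ahr+/+ and 95923 to 100529.8 in Ahr-/- libraries, 4 of the 7 being higher. Some markers of other cells also moved with genotype. Of 7 plasmacytoid dendritic cell markers 5 were higher and 1 lower in Ahr-/- libraries, with no marker at 0 and with summed levels of 11089 to 12046.5 and 11508 to 12839.6 normalized counts. Most of the Ahr+/+ sum was *Tcf4*, which fell from 7537 to 4680.5 (log2 fold change −0.68), whereas *Siglech*, *Klk1* and *Runx2* rose from 56.8 to 269.7, from 8.89 to 41.15 and from 49.97 to 140.5 (log2 fold changes 2.23, 2.19 and 1.47). Of 7 conventional dendritic cell markers 4 were higher and 1 lower, with summed levels of 810 to 933 and 872 to 1057 normalized counts. The summed macrophage and monocyte markers were at 838 to 1181 and 340 to 862 normalized counts, with 1 of 6 lower and 1 higher. The lower sum came from *Emr1*, at 649.7 and 54.1 normalized counts, while the means of the other 5 were higher in Ahr-/- libraries and only *Cd14*, at 7.08 and 24.7, passed the threshold among them. The 5 NK cell markers summed to 172 to 266 and 270 to 406, with 2 higher. Of 7 T cell markers 1 was lower (5971 to 6383 against 5993 to 6899.5 in sum, nearly all of it *Lck*, with means of 5967.6 and 6258.2), of 4 plasma cell markers 2 were lower and 1 higher (14210 to 20211 against 13375 to 15019), and none of 4 neutrophil markers was called (89.4 to 283 against 106 to 403). Among red cell markers *Hba-a1* and *Hba-a2* were at 0 in all libraries. The part of these cells in the early gene differences was not tested.

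*Egr2* was the most abundant of the 10 genes, both in counts and per kilobase of exon. It lies on chromosome 10 of GRCm38 from 67535475 to 67542188 on the forward strand. The Ahr+/+ mice had 20458, 20287 and 20923 normalized counts and the Ahr-/- mice 13317, 14611 and 16022. Every Ahr-/- mouse lay below every Ahr+/+ mouse, and the Ahr+/+ mice were close to each other, with a mean of 20556 ± 329 against 14650 ± 1353 (mean ± SD of 3 mice each). The log2 fold change was −0.49 ± 0.055 (SE; edgeR adjusted p = 4.3e-05). The promoter of *Egr2* is shown because its letters include the classical elements through which SRF and CREB act on early genes. The capitals in the following sequence, the 250 bases before a RefSeq start at chr10:67537619-67537868 (GRCm38.p6, forward strand), mark a CArG box (CC, 6 bases that are A or T, then GG) and the letters TGACG, the core of a CREB element, on either strand.
Egr2: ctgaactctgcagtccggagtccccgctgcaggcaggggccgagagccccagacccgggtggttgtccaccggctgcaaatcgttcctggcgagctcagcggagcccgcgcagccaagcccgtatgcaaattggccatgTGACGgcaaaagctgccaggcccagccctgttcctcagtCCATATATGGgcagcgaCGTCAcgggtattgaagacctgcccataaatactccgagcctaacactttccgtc
The CArG box lies 72 to 63 bases before the start, and TGACG was found at 2 places, 111 to 107 and 55 to 51 bases before it. Of 32817 RefSeq windows of 250 bases before a start, searched on both strands, 1.47% held a CArG box and 17.7% held TGACG. Of the 10 genes, 7 had a window in the RefSeq table, and *Egr1*, *Egr3* and *Ier2* had none. *Egr2* had 5 windows and the other 6 genes 1 each. The *Egr2* window nearest to the start of GENCODE's principal transcripts was used, and the other 4 entered only the shares over all windows.

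*Egr3*, on chromosome 14 from 70077203 to 70082614, was also lower. Its normalized counts were 5633, 6263 and 6026 in Ahr+/+ mice and 3436, 3632 and 4177 in Ahr-/- mice, with no overlap. The means were 5974 ± 318 and 3748 ± 384 (mean ± SD of 3 mice each), and the log2 fold change was −0.67 ± 0.065 (SE; edgeR adjusted p = 1.2e-05). Shares of the EGR transcripts inside each library are given as a description. Per kilobase of exon it made up 15.3% ± 0.82 of the summed *Egr1*, *Egr2* and *Egr3* level in Ahr+/+ and 13.3% ± 0.199 in Ahr-/- mice (mean ± SD of 3 mice each). The share of *Egr1* was higher in every Ahr-/- mouse, at 18.73%, 18.61% and 20.41% against 16.98%, 15.96% and 16.74%. The corresponding shares of *Egr2* were 68.2% ± 0.3 and 67.4% ± 1.06.

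*Egr1*, on chromosome 18 from 34859823 to 34864984, had 6696, 6294 and 6786 normalized counts in Ahr+/+ mice and 4857, 5256 and 6514 in Ahr-/- mice. Ahr-/- replicate 3 lay within the range of the Ahr+/+ mice, and the other two Ahr-/- mice lay below it. The means were 6592 ± 262 and 5542 ± 865 (mean ± SD of 3 mice each). The log2 fold change was −0.25 (standard error 0.083, 95% interval −0.43 to −0.07, adjusted p = 0.060 from edgeR). The call depended on the setting. Without Ahr-/- replicate 3 the log2 fold change of *Egr1* was −0.38 and passed the threshold (adjusted p = 7.0e-05 from edgeR). It also passed with all 6 libraries when no filter was used (adjusted p = 0.013) or with a replicate block (adjusted p = 0.020), and over all alternatives its adjusted p lay between 7.0e-05 and 0.25. Ahr-/- replicate 3 was also the highest Ahr-/- mouse for *Egr2*, *Egr3*, *Nab2*, *Nr4a1*, *Ier2* and *Ier5*.

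*Nab2* encodes the EGR corepressor and is itself induced by EGR factors. It lies on chromosome 10 from 127660918 to 127668568 on the reverse strand. It had 7473, 7720 and 7420 normalized counts in Ahr+/+ mice and 7111, 7494 and 8484 in Ahr-/- mice, with overlap. The log2 fold change was 0.03 (95% interval −0.09 to 0.15, adjusted p = 0.76 from edgeR). Its exons share 40 bases with *Stat6* on the opposite strand, a gene with 17904 normalized counts in Ahr+/+ mice, and 151 and 1050 bases with *Nemp1* and the antisense gene *Gm16229*. The strand setting of the read counting is not given in the sources used here, so the counts of *Nab2* are uncertain to that extent.

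Ratios of EGR to *Nab2* transcript inside each library, which do not depend on how libraries are scaled, were chosen after the values of these genes were seen. They restate the values above on another scale and are a description, not a further result. Per kilobase of exon, the ratio of *Egr2* to *Nab2* was 2.37, 2.27 and 2.44 in Ahr+/+ mice and 1.62, 1.69 and 1.63 in Ahr-/- mice. The ratio of *Egr3* to *Nab2* was 0.503, 0.542 and 0.542 in Ahr+/+ and 0.323, 0.324 and 0.329 in Ahr-/- mice. For *Egr1* to *Nab2* the values were 0.588, 0.535 and 0.600 against 0.448, 0.460 and 0.504. The genotypes did not overlap in any of these ratios, that of *Egr1* included, and the Ahr-/- means were 69.8%, 61.4% and 82.0% of the Ahr+/+ means. Each gave p = 0.1 in a two-sided exact permutation test, the smallest that 3 mice against 3 allow. The test could therefore not pass, and over the 12 ratios computed among the 10 genes the Benjamini–Hochberg adjusted p of these exact permutation tests was 0.12. The ratio of *Ier2* to *Ier5*, both nearly level, was 1.42 ± 0.0554 and 1.49 ± 0.0462 (mean ± SD of 3 mice each) and overlapped.

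**Figure D2:**
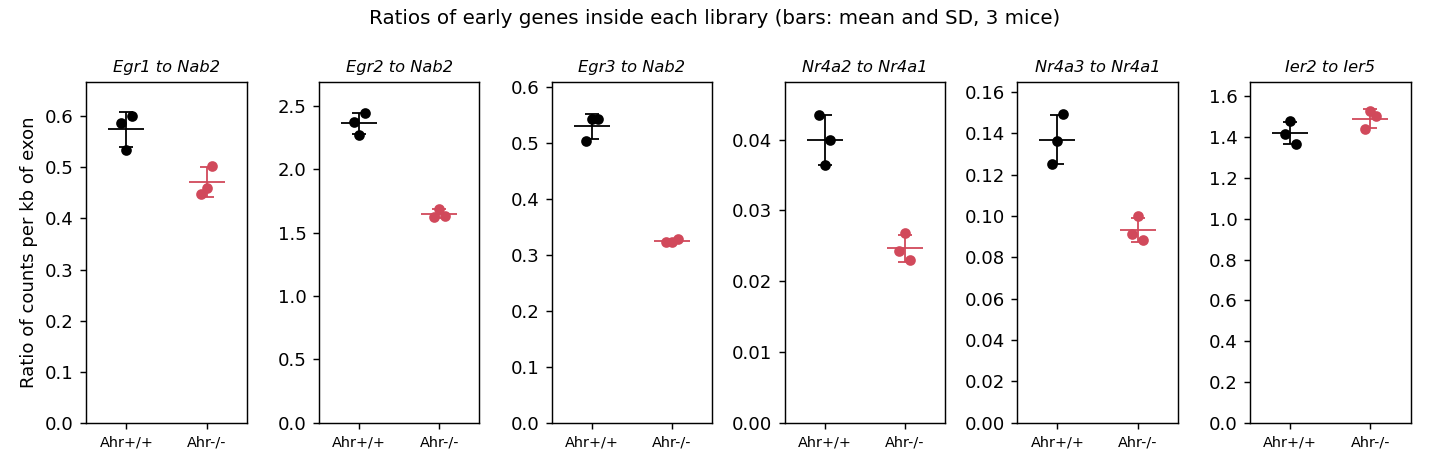
Ratios of 2 genes inside each library, as counts per kilobase of exon (vertical axes linear from 0, each panel with its own scale), for Ahr+/+ (black) and Ahr-/- (red); points are mice and bars are the mean and SD of 3 mice. The EGR genes over *Nab2* and the NR4A genes over *Nr4a1* are lower in every Ahr-/- mouse, while *Ier2* over *Ier5* overlaps.

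Among the nuclear receptors, *Nr4a1* was the main transcript and did not pass the threshold. It lies on chromosome 15 from 101254269 to 101274795 and had 10504, 10162 and 9763 normalized counts in Ahr+/+ mice and 9623, 9271 and 10352 in Ahr-/- mice. The values overlapped, and the log2 fold change was −0.06 (95% interval −0.16 to 0.04, adjusted p = 0.45 from edgeR). A fall as large as that of *Nr4a2* or *Nr4a3* lies outside this interval. *Nr4a3*, on chromosome 4 from 48045153 to 48086447, had 2246, 2359 and 2487 normalized counts in Ahr+/+ and 1502, 1578 and 1563 in Ahr-/- mice. All Ahr-/- mice lay well below the Ahr+/+ mice. The means of *Nr4a3* were 2364 ± 121 and 1548 ± 40.4 (mean ± SD of 3 mice each), with a log2 fold change of −0.61 ± 0.046 (SE; edgeR adjusted p = 1.3e-06). *Nr4a2*, on chromosome 2 from 57106830 to 57124003, was the least abundant of the family. It had 528, 429 and 450 normalized counts in Ahr+/+ and 270, 287 and 275 in Ahr-/- mice. The genotypes did not overlap, and the log2 fold change was −0.75 ± 0.091 (SE; edgeR adjusted p = 7.5e-05).

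The makeup of the NR4A transcripts inside each library follows from the values above and is given as a description. Per kilobase of exon, *Nr4a1* made up 85.0% ± 0.779 of the summed NR4A level in Ahr+/+ and 89.5% ± 0.621 in Ahr-/- mice (mean ± SD of 3 mice each). *Nr4a3* made up 11.6% ± 0.917 and 8.34% ± 0.464, and *Nr4a2* 3.40% ± 0.308 and 2.21% ± 0.157. The ratio of *Nr4a2* to *Nr4a1* was 0.0435, 0.0365 and 0.0399 in Ahr+/+ and 0.0242, 0.0268 and 0.0230 in Ahr-/- mice, without overlap. That of *Nr4a3* to *Nr4a1* was 0.1253, 0.136 and 0.149 against 0.0915, 0.0998 and 0.0885, also without overlap. That of *Nr4a2* to *Nr4a3* overlapped, at 0.294 ± 0.0459 and 0.264 ± 0.00428 (two-sided exact permutation test, p = 0.3, n = 3 mice per genotype). With 3 mice per genotype this test cannot show that a ratio was unchanged.

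The promoters of the NR4A genes are shown because they share a sequence feature across members that fell and the member that did not. The following RefSeq windows (GRCm38.p6) end at the base before the start, or before the first base that GENCODE places in an exon, and capitals mark TGACG on either strand (CGTCA when read on the other strand). They are chr15:101266596-101266845 on the forward strand for *Nr4a1*, chr2:57124004-57124253 on the reverse strand for *Nr4a2* and chr4:48045055-48045152 on the forward strand for *Nr4a3*.
Nr4a1: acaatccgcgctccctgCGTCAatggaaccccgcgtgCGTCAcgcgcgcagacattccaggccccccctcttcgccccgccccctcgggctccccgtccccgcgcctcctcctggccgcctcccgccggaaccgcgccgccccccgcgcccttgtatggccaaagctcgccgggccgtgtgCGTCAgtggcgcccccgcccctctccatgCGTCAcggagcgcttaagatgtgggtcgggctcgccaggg
Nr4a2: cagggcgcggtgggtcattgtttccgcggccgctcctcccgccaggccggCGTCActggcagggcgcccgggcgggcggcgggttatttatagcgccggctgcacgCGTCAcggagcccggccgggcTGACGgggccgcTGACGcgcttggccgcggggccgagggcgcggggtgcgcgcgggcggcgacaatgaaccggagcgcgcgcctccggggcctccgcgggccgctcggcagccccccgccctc
Nr4a3: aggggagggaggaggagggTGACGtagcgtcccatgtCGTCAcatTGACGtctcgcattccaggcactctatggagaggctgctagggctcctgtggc
Each of the 3 windows, taken over its full 250 bases, held TGACG at 4 places, and 0.137% of all 32817 windows held it at 4 or more. The windows of *Nr4a1*, *Nr4a2* and *Nr4a3* were 74.4%, 80.0% and 63.6% G or C, and the share over all windows was not matched for base content. For *Nr4a3* 3 of the 4 stand in the 98 bases printed, and the remaining match lies 147 to 143 bases before the RefSeq start, inside the first exon of a GENCODE transcript. The windows of *Nab2*, *Ier3* and *Ier5* held no TGACG. The full palindrome TGACGTCA was in none of the 7 windows and in 1.55% of all windows, and the CArG box was in the *Egr2* window used here alone among the 7. GCGTG, the core of the element that AhR and ARNT bind, was found in the windows of *Nr4a1* (2 places), *Nr4a2*, *Nr4a3* and *Nab2* (1 place each) and in 28.1% of all windows, and not in those of *Egr2*, *Ier3* and *Ier5*. In *Nr4a1* and in *Nr4a2* 1 of these places shared bases with a TGACG match, and every TGACGTCA contains TGACG. GCGGGGGCG, an EGR element, was in the window of *Nr4a1* alone among the 7, 60 to 52 bases before the start. It was in 2.57% of all windows. GCGTGGGCG, another form of the EGR element, and AAAGGTCA, an NR4A element, were in none of the 7 windows. Over all windows their shares were 0.536% and 1.34%. Matches of letters are a description of these windows and no measure of binding.

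Among the IER genes, *Ier3* had the lowest level of the 10 genes and the largest fold change. It lies on chromosome 17 from 35821684 to 35822923. The libraries held 32, 50 and 45 counts in Ahr+/+ and 8, 37 and 17 in Ahr-/- mice, or 31.1, 50.3 and 50.5 against 13.7, 26.3 and 15.5 normalized counts. The values did not overlap, but Ahr+/+ replicate 1 and Ahr-/- replicate 2 were close to each other. The log2 fold change was −1.15 (standard error 0.30, 95% interval −1.80 to −0.50, adjusted p = 0.017 from edgeR). The call was lost without Ahr+/+ replicate 2 (log2 fold change −1.04, adjusted p = 0.069 from edgeR) or Ahr+/+ replicate 3 (−1.05, adjusted p = 0.072), while the fold change stayed of similar size.

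*Ier2*, on chromosome 8 from 84661331 to 84662852, had 3037, 3032 and 2695 normalized counts in Ahr+/+ and 2904, 2829 and 3242 in Ahr-/- mice. *Ier5*, on chromosome 1 from 155096361 to 155099636, had 4625, 4415 and 4242 in Ahr+/+ and 4346, 3984 and 4646 in Ahr-/- mice. For both genes the genotypes overlapped. The log2 fold changes were 0.03 (95% interval −0.09 to 0.16, adjusted p = 0.76 from edgeR) for *Ier2* and −0.04 (95% interval −0.16 to 0.09, adjusted p = 0.73 from edgeR) for *Ier5*. These intervals leave room for small changes in either direction, and the sign of both values turned when single libraries were left out.

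**Figure D3:**
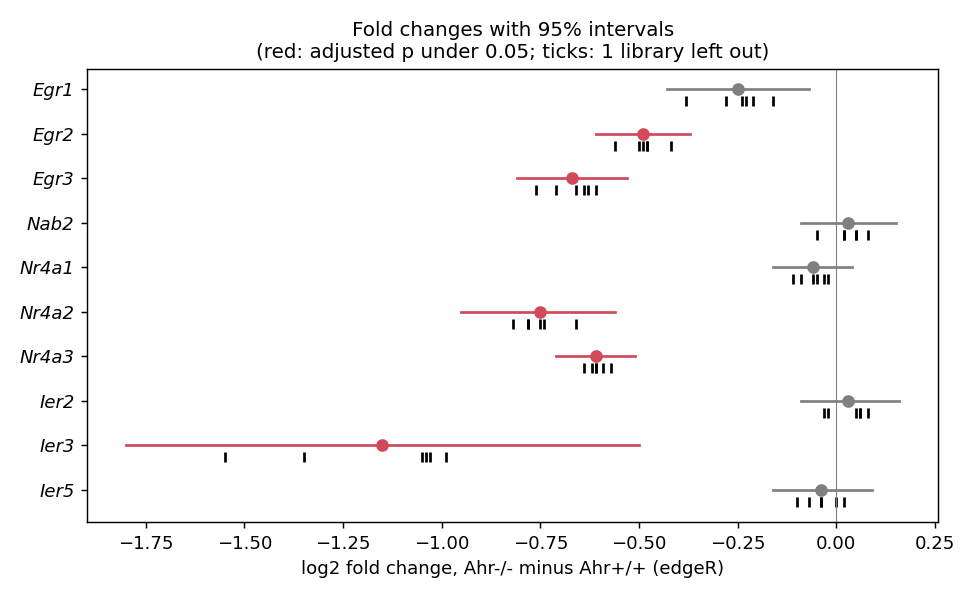
Log2 fold change of each early gene in Ahr-/- minus Ahr+/+ mice from edgeR (horizontal axis), with 95% intervals as lines; red marks an adjusted p-value under 0.05, grey the others, and black ticks the values with each library left out in turn. The intervals of *Egr2*, *Egr3*, *Nr4a2*, *Nr4a3* and *Ier3* end at or below −0.37, and those of *Nab2*, *Nr4a1*, *Ier2* and *Ier5* lie between −0.16 and 0.16.

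Set in order of level per kilobase of exon, the Ahr+/+ mice had 6049 ± 96.9 normalized counts for *Egr2*, then 2891 ± 106 for *Nr4a1*, 2563 ± 54.4 for *Nab2* and 1919 ± 129 for *Ier2* (SD, n = 3 mice). *Egr1*, *Egr3* and *Ier5* followed at 1470 ± 58.4, 1356 ± 72.2 and 1351 ± 58.6, and their values overlapped each other. *Nr4a3*, *Nr4a2* and *Ier3* were far lower, at 395 ± 20.1, 116 ± 12.9 and 38.9 ± 9.87. Of the 13531 tested genes with an exon length, 2.06% were above *Egr2* and 71.6% above *Ier3* in the mean over all libraries. In Ahr-/- mice *Egr2* was still first, at 4311 ± 398, and *Egr3* was below *Egr1* and *Ier5* without overlap, at 851 ± 87.1 against 1236 ± 193 and 1320 ± 101. The levels of *Nr4a1* and *Nab2*, apart in Ahr+/+ mice, overlapped in Ahr-/- mice. The genes that fell stood both at the top and at the bottom of this order.

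Genes whose mean reached 100 normalized counts were searched for like profiles, which left out *Ier3*. The profile nearest to each early gene was found as the smallest mean absolute difference of centred log2 values over the 6 libraries. It was *Zfp36*, which encodes an RNA-binding protein that destabilizes cytokine transcripts and is itself an early gene, for *Nr4a1* (difference 0.013, among 9691 genes). For *Egr3* it was *Tnfrsf13c*, the BAFF receptor (difference 0.037), for *Egr2* *Bet1l* (0.026), for *Nr4a3* *Atp6v0d1* (0.038), for *Nr4a2* *Mir22hg* (0.045) and for *Egr1* *Fnbp1* (0.040). For *Nab2*, *Ier2* and *Ier5* the nearest were *Zfp787* (0.017), *Coro1a* (0.017) and *Cd151* (0.015). No early gene on the list was the nearest profile of another, though *Nr4a3* was the nearest list member of *Egr2*, *Egr3* and *Nr4a2*, at ranks 52, 31 and 57 of 9691. The closest list members were *Nr4a1* and *Ier5*, neither past the threshold, with a difference of 0.023. Their ranks were 6 from *Ier5* and 40 from *Nr4a1*.

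The other genes of these families were few. *Nab1*, which encodes the other EGR corepressor, was nearly level, with 3971 ± 110 and 4085 ± 161 normalized counts (mean ± SD of 3 mice each). *Egr4* had 8.74, 6.04 and 12.4 normalized counts in Ahr+/+ and 5.15, 4.98 and 5.47 in Ahr-/- mice, close to the smallest level the depth can show, and did not pass the threshold (adjusted p = 0.27 from edgeR). *Ier5l*, a relative of *Ier5*, rose from 15.5, 18.1 and 12.4 to 61.8, 39.1 and 43.8 normalized counts. Its log2 fold change was 1.58 ± 0.27 (SE; edgeR adjusted p = 0.0012), in contrast to the level value of *Ier5*.

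Transcription factors and coactivators that act on early gene promoters were examined as a list of 18 genes, of which 5 passed the threshold. Of these 4 were lower and 1 was higher, against 8.13% and 9.79% of all tested genes. All 3 NFAT genes on the list fell. *Nfatc1*, the NFAT gene induced by the BCR, went from 21396 ± 209 to 16861 ± 942 normalized counts (mean ± SD of 3 mice each; log2 fold change −0.34, adjusted p = 7.4e-05 from edgeR). *Nfatc2* and *Nfatc3* had log2 fold changes of −0.30 and −0.23, and *Crtc3*, a CREB coactivator, −0.37 (adjusted p = 0.0089, 5.6e-04 and 0.0011 from edgeR). *Elk1*, which partners SRF, was higher at 0.21 (adjusted p = 0.046 from edgeR), and the list had no higher call with DESeq2 size factors, at an adjusted p under 0.01, or without Ahr+/+ replicate 1, Ahr+/+ replicate 2, Ahr-/- replicate 2 or Ahr-/- replicate 3. *Srf* itself was nearly level, with a log2 fold change of −0.03 (95% interval −0.12 to 0.06), and *Creb1* had −0.08 (−0.17 to 0.01). The median over the list was −0.01. These are RNA levels, and the activity of the factors was not tested. In the paper AhR-deficient B cells had unaltered calcium mobilization after α-IgM. Without Ahr-/- replicate 2 only 3 of the 18 passed the threshold, all lower.

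A list of 39 genes drawn up as other early genes of lymphocytes, with the quiescence factor *Klf2* on it, held calls in both directions. By edgeR 27 passed the threshold, 15 lower and 12 higher, where 17.9% of all tested genes were called, 8.13% lower and 9.79% higher. The median log2 fold change over the list was 0.00. The largest changes were in *Junb*, an AP-1 subunit, from 6954 ± 214 to 3122 ± 150 normalized counts, and in *Cd69*, the activation marker that retains lymphocytes in tissue, from 7736 ± 913 to 3492 ± 27.8 (mean ± SD of 3 mice each). These are RNA levels, and protein was not measured here. In the paper CD69, CD86 and MHC II, tested as activation markers, were unaltered in AhR-deficient B cells stimulated with α-IgM. The log2 fold changes of *Junb* and *Cd69* were both −1.15 (adjusted p = 2.6e-09 and 1.6e-07 from edgeR). *Klf2*, a factor of lymphocyte quiescence and migration, and *Fosb*, another AP-1 subunit, had −0.94 and −0.86 (adjusted p = 2.4e-06 and 0.017 from edgeR). Among the 12 higher genes, chosen for naming after their values were seen, *Rgs2* and *Rgs1*, which encode regulators that shorten G protein signals, had log2 fold changes of 0.77 and 0.57, and *Dusp5*, which encodes a MAP kinase phosphatase, had 0.67 (adjusted p = 4.6e-05, 5.2e-04 and 7.4e-06 from edgeR).

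Of 12 genes linked to EGR or NR4A factors in lymphocytes, 3 were lower and 4 higher by edgeR, beside 8.13% and 9.79% of all tested genes. The median log2 fold change over these 12 was 0.01. *Id3*, an inhibitor of E proteins that EGR factors induce downstream of antigen receptors, fell from 1223 ± 69.2 to 436 ± 20.6 normalized counts (mean ± SD of 3 mice each; log2 fold change −1.48, adjusted p = 4.9e-09 from edgeR). *Ccl3*, which encodes a chemokine, fell with a log2 fold change of −0.45 (adjusted p = 0.019 from edgeR). At an adjusted p under 0.01 *Ccl3* was not called. Without Ahr+/+ replicate 1 or Ahr+/+ replicate 2 the list had 2 lower calls. *Cd44* and *Icam1*, which encode adhesion molecules, rose with log2 fold changes of 0.90 and 0.42 (adjusted p = 8.0e-08 and 1.3e-05 from edgeR). *Ccl4*, the neighbour of *Ccl3* in function, was at −0.06 and did not pass the threshold.

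**Figure D4:**
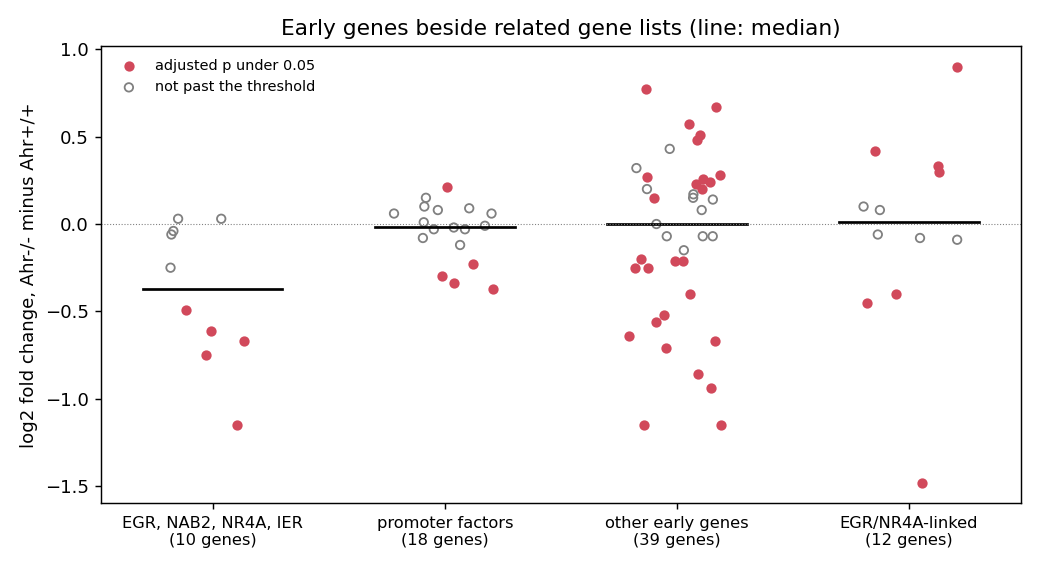
Log2 fold change in Ahr-/- minus Ahr+/+ mice (vertical axis) of every gene in 4 lists, with red points past an adjusted p-value of 0.05 in edgeR, open points not past it, and a line at each list's median; horizontal scatter has no meaning. The medians are −0.37 for the 10 EGR, NAB2, NR4A and IER genes and within 0.01 of 0 for the other lists.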

How the data were processed

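Splenic B lymphocytes of 3 Ahr+/+ and 3 Ahr-/- mice were profiled by stranded mRNA sequencing, and genotype and replicate number were taken from the sample titles. The authors deposited raw counts of reads per gene symbol, without normalization. TopHat2, HTSeq and DESeq, with the build mm10, are named in the submitters' processing notes, and the strand setting of the counting is not given in the sources used here. The authors' normalized counts, and their comparison table of mean counts, fold changes and p-values, were not used. Genes with fewer than 10 counts summed over the 6 libraries were dropped (9738), and 13682 were tested. Counts were compared in R 4.3.3 with edgeR 4.0.16 (TMM, quasi-likelihood fit with genotype as the only term), with Benjamini–Hochberg adjustment across every tested gene. Standard errors (SE) were derived from the F statistic as |log2 fold change|/√F. Total counts ranged from 22095096 to 53648787, and a level of 3 counts covers counting error only.

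Positions and exon lengths came from GENCODE vM21 (GRCm38), and promoter windows from RefSeq (GRCm38.p6). The analysis was tested on simulated data. DESeq2 1.42.0 served as an alternative. Scaling was varied (size factors of DESeq2, or library size by itself), as were the filter (none, or 10 counts in 3 or more libraries), the fit (robust, with a replicate block, or with 2 as the prior count) and the threshold (0.01), and every library was left out in turn. The genes and lists were chosen with earlier results of these data known. Named were all 10 list genes, *Ahr*, called genes of the other lists or the 4 with the largest absolute fold change where more were called, and the nearest profile of each list gene. Other genes were named after their values were seen.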

Additional observations from a re-analysis of the deposited data

How the results depend on the processing

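For the 10 early genes, 15 alternatives gave 150 values, of which 140 kept both direction and side of the threshold. *Egr2*, *Egr3*, *Nr4a2* and *Nr4a3* were lower and past the threshold in all 15. The number of the 10 genes called was between 4 and 6. *Egr1* passed the threshold without a filter (log2 fold change −0.25, adjusted p = 0.013 from edgeR) and with the replicate number as a block (−0.26, adjusted p = 0.020 from edgeR). With single libraries left out its log2 fold change ran from −0.38, without Ahr-/- replicate 3 and past the threshold, to −0.16. That of *Ier3* ran from −1.55 to −0.99 and lost the threshold without Ahr+/+ replicate 2 or 3, and at an adjusted p under 0.01 *Ier3* was no longer called (−1.15, adjusted p = 0.017 from edgeR). The values that changed sign were not past the threshold in any setting, with ranges over libraries left out of −0.05 to 0.08 for *Nab2* (−0.05 without Ahr-/- replicate 3), −0.03 to 0.08 for *Ier2* (−0.02 without Ahr+/+ replicate 3 and −0.03 without Ahr-/- replicate 3) and −0.10 to 0.02 for *Ier5* (0.02 without Ahr-/- replicate 2). The cause was not tested. Over all genes 2453 were called, 1473 at an adjusted p under 0.01, and 1664 to 2601 with 1 library left out, the lowest without Ahr-/- replicate 2. The promoter factors called ranged from 3, without Ahr-/- replicate 2, to 6 with libraries left out. The labels do not pair the mice. Deviations from the genotype means of same-numbered mice correlated at −0.03, 0.12 and −0.045 across 13682 genes, so the replicate block, with 2303 genes called, was not read as a paired analysis. *Ier3*, *Egr4* and *Ier5l* had few counts, which limits the precision of their values.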
